A study of Zea mays with 144 samples.

Results

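Ribosomal protein genes were followed through 6 stages of anther development in maize. The genes are those whose symbol or synonym, in the array annotation matched to the maize reference, consists of rps or rpl, digits and at most a short letter suffix. This rule uses names only and no measured value. It took 14 genes with 20 features, a feature being 1 spotted cDNA, of 12160 features in all, of which 6412 carry a single gene. The small ribosomal subunit is represented by 6 genes with 10 features, and the large subunit by 8 genes with 10 features. A further 4 features carry such a name but list 3 genes each, and were left out.

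A ribosome consists of a small subunit, which decodes the messenger RNA, and a large subunit, which joins the amino acids, and each holds many different proteins around its ribosomal RNA. Cells make these proteins in matched amounts, and plants carry each as a small family of near-identical genes. In the anther, meiosis and the formation of microspores, the cells that become pollen, take place inside the nourishing tapetum, and in lily the ribosomes of the meiotic cells are known to be broken down and replaced around this time. The names used here do not tell whether a protein belongs to cytosolic, plastid or mitochondrial ribosomes.

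Anthers came from tassels of the inbred line Ky21, in which each spikelet holds an upper and a lower floret. Under the light microscope they were sorted into a meiocyte, a mixed dyad/tetrad, a tetrad, an early microspore, a mid-microspore and a mixed mid/late microspore stage, and each of the 12 groups of stage and floret was measured in 2 RNA pools, 1 in each of 2 sets. A pool held RNA of 1 to 4 individuals with 8 to 20 anthers per tassel, was amplified with T7 polymerase, and was compared in 2 colours, Cy3 and Cy5, with other pools of its set on 4 of the 48 slides. A pool's value is its fitted log2 ratio to the average pool of the set. Ratios and no levels were measured, and values of different features cannot be ranked against each other as levels.

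Which channel is the numerator of the ratio is not said in the labels, although the dyes are. Stage slides were read as Cy5 over Cy3 and floret slides as upper over lower floret, and every direction given is at most likely. Stage steps read in this way correlated between the 2 sets with r between -0.13 and 0.55 across features in 10 comparisons. Turning the sign exchanges each higher and lower. The median of all features lay near 0 in each pool. At the mid/late microspore against the meiocyte stage, 3 of the 4 listed meiocyte marker features were lower in upper florets and 2 of 4 in lower florets, which is the basis of the sign and not independent of it. These were ZYP1 (-2.02), rad51a (-1.36) and afd1 (-0.72) in upper florets, and rad51a (-2.24) and afd1 (-0.74) in lower florets, all log2 ratios. Of 9 green tissue marker features 5 were higher and 1 lower in each floret, with median log2 ratios of 1.08 in upper and 1.45 in lower florets, with rbcS feature 9047 highest (2.58 in upper and 2.96 in lower florets). The lower one was cab-m1 (-1.79 in upper and -1.73 in lower florets), and of 2 psaH features 1 was higher (1.66 and 2.01) while the other stood at -0.79 and -1.25 and did not pass. In lower florets the kernel marker zp15 (1.38) and the tapetum gene ms23 (0.74) were higher too. The other kernel features, GLB1 (1.87), o2 (-0.06), z1C1_12 (-0.18) and z1A1_2 (-0.83), did not pass in lower florets. In upper florets no kernel feature passed, and neither did ms23 (0.60). The part of these lists in the results below was not tested, and fewer cells of a type cannot be told apart from less RNA per cell. Replicates are pools, so that p-values measure the spread between pools.

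Most of the called features belong to the small subunit. Between the mid/late microspore and the meiocyte stage, 5 of its 10 features fell and 1 rose in each floret, with a median log2 ratio over the 10 features of -0.84 in upper and -0.88 in lower florets. The median over all features was -0.01 in upper and 0.0057 in lower florets. Of the 10 large subunit features 1 fell and none rose in each floret, and their median was -0.25 in upper and -0.14 in lower florets. The difference between the subunits was not tested. Over both subunits 7 of 20 features (35%) passed the test in each floret, against a background of 26.7% over the whole array in upper and 27.8% in lower florets (limma, Benjamini-Hochberg adjusted p under 0.05 over all features). The 6 features that fell are 30% of the members, where 13.5% of the array fell in each floret. The 1 that rose is set against 13.2% of all features in upper and 14.3% in lower florets. The same 7 features passed in both florets, each in the same direction, but the florets share slides within the fit.

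**Figure D1:**
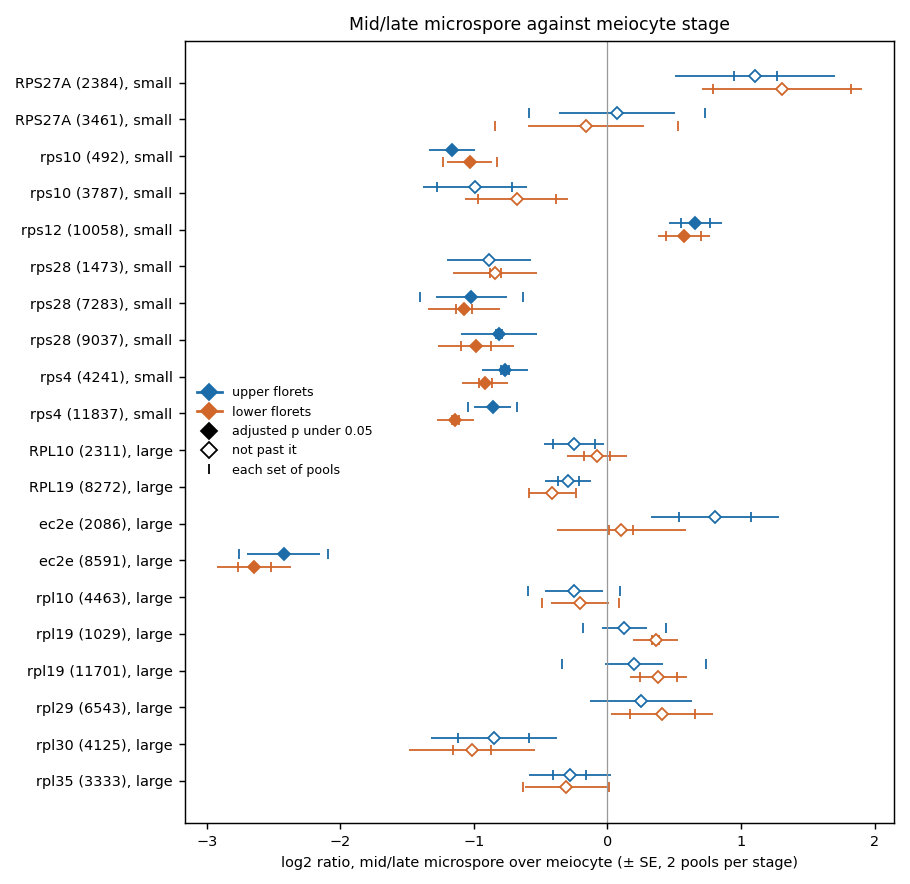
Log2 ratio of the mid/late microspore stage over the meiocyte stage for each of the 20 features, named by gene with the feature number and subunit, in upper florets (blue, above) and lower florets (orange, below). Diamonds are fitted values with their SE, filled where the adjusted p is under 0.05, and ticks are the values of the 2 sets of pools. Feature 8591 of ec2e lies farthest to the left, at -2.43 in upper and -2.64 in lower florets, and rps12 is the filled feature to the right of 0.

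Among small subunit genes, rps10 declined in small steps. In yeast this protein sits in the head of the small subunit. In upper florets feature 492 stood at 0.81 and 0.74 in the meiocyte pools of sets 1 and 2, 0.53 and 0.31 at dyad/tetrad, 0.42 and 0.44 at tetrad, -0.17 and -0.0023 at early microspore, -0.23 and 0.12 at mid-microspore, and -0.36 and -0.42 at mid/late microspore. Its lower floret pools stood at 0.48 and 0.22, -0.05 and 0.30, 0.20 and -0.13, -0.29 and -0.42, -0.59 and -0.54, and -0.75 and -0.61 in the same order. Both pools of the last stage lay below both of the first in each floret, without overlap. The log2 ratio of the last to the first stage was -1.16 ± 0.17 (SE, 2 pools per stage) in upper florets, a 2.24-fold lower value (limma adjusted p = 2.64e-04). In lower florets it was -1.03 ± 0.17 (adjusted p = 6.46e-04). Feature 3787, a second spot of the same cDNA clone, scattered more widely. It stood in upper florets at 0.80 and 0.50, 0.98 and 0.06, -0.55 and -0.13, -0.39 and 0.03, -0.13 and 0.39, and 0.09 and -0.77 from the meiocyte to the mid/late microspore stage, and in lower florets at 0.66 and -0.16, 0.34 and 0.58, -0.39 and 0.10, -0.55 and 0.10, -0.53 and -0.15, and -0.31 and -0.55. Both tetrad pools lay below both dyad/tetrad pools in each floret, and the pools of the later stages overlap. Its last stage over its first gave -0.99 ± 0.39 in upper florets (limma adjusted p = 0.0724) and -0.68 ± 0.39 in lower florets (adjusted p = 0.215), and did not pass. The 2 spots correlated with r = 0.64 over the 24 pools, which share slides.

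The gene rps28, whose protein lies in yeast at the messenger RNA exit of the small subunit, was measured by 3 features that followed each other closely. The 2 spots of a single clone, features 1473 and 9037, had r = 0.98 over the 24 pools, and feature 7283 had r = 0.91 with each of them. In upper florets feature 7283 stood at 0.36 and 0.60 in meiocyte pools, 0.41 and 0.71 at dyad/tetrad, 0.21 and 0.17 at tetrad, -1.24 and -0.94 at early microspore, -0.74 and -0.50 at mid-microspore, and -0.28 and -0.80 at mid/late microspore. Lower floret pools of this feature stood at 0.57 and 0.78, 0.77 and 1.37, 0.72 and 0.44, -0.40 and -0.91, 0.06 and -0.55, and -0.44 and -0.36. All 6 pools up to the tetrad stage lay above all 6 later ones in each floret, and the early microspore pools were the lowest in upper florets. For the last over the first stage the log2 ratio was -1.02 ± 0.27 in upper florets (limma adjusted p = 0.0122) and -1.07 ± 0.27 in lower florets (adjusted p = 0.00897). In the same order of stages, features 1473 and 9037 ran alike. Feature 9037 stood in upper florets at 0.66 and 0.77, 0.69 and 0.82, 0.32 and 0.23, -1.16 and -0.98, -0.70 and -0.39, and -0.17 and -0.02, and in lower florets at 0.61 and 0.74, 0.61 and 1.19, 0.48 and -0.39, -0.49 and -0.98, -0.34 and -0.88, and -0.49 and -0.13. Feature 1473 stood in upper florets at 0.78 and 0.64, 0.62 and 0.92, 0.30 and 0.36, -1.22 and -0.88, -0.66 and -0.14, and -0.11 and -0.25, and in lower florets at 0.43 and 0.55, 0.49 and 1.19, 0.56 and -0.41, -0.52 and -1.03, -0.24 and -0.70, and -0.45 and -0.25. In both, the second tetrad pool of lower florets lay low, among the later pools. Feature 9037 passed at -0.81 ± 0.28 in upper florets (limma adjusted p = 0.0480) and -0.98 ± 0.28 in lower florets (adjusted p = 0.0198), and its upper floret call was lost in 16 of 24 fits without 1 pool. Feature 1473 had similar ratios, -0.89 ± 0.32 and -0.84 ± 0.32, and lay just outside the threshold (limma adjusted p = 0.0514 in upper and 0.0619 in lower florets).

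The name rps4 belongs to 2 genes, each with 1 feature, and both fell. In upper florets feature 4241 stood at 0.51 and 0.48 in meiocyte pools, 0.33 and 0.60 at dyad/tetrad, 0.11 and 0.26 at tetrad, -0.91 and -0.65 at early microspore, -0.78 and -0.69 at mid-microspore, and -0.29 and -0.26 at mid/late microspore. In lower florets its pools stood at 0.72 and 0.47, 0.43 and 0.77, 0.53 and 0.38, -0.23 and -0.40, -0.18 and -0.57, and -0.25 and -0.40. Its pools thus separate without overlap into those up to the tetrad stage and those from the early microspore stage on.

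Feature 11837, of the other rps4 gene, stood in upper florets at 0.65 and 0.53 in meiocyte pools, 0.33 and 0.33 at dyad/tetrad, 0.14 and 0.37 at tetrad, 0.16 and 0.06 at early microspore, -0.33 and -0.49 at mid-microspore, and -0.40 and -0.14 at mid/late microspore. Its pools of lower florets stood at 0.38 and 0.40, 0.12 and -0.13, 0.29 and 0.31, 0.06 and 0.01, -0.61 and -0.55, and -0.79 and -0.71. The low pools begin a stage later, at mid-microspore, where they no longer overlap the earlier ones. At the last against the first stage feature 4241 had a log2 ratio of -0.77 ± 0.17 in upper florets (limma adjusted p = 0.00542) and -0.92 ± 0.17 in lower florets (adjusted p = 0.00170). Feature 11837 had -0.86 ± 0.14 in upper florets (limma adjusted p = 4.52e-04) and -1.14 ± 0.14 in lower florets (adjusted p = 5.43e-05). In the high scans alone feature 4241 stood at -0.46 in upper florets (limma adjusted p = 0.0856) and -0.56 in lower florets (adjusted p = 0.0399). With columns scaled to one spread it did not pass in upper florets either, at -0.53 (adjusted p = 0.0786). A cDNA spot can also bind RNA of a near-identical gene, so that the assignment of each profile to its gene is uncertain, and the difference between the profiles was not tested.

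One small subunit gene, rps12, ran the other way. In upper florets feature 10058 stood at -0.43 and -0.34 in meiocyte pools, -0.14 and -0.33 at dyad/tetrad, -0.26 and -0.43 at tetrad, 0.23 and 0.08 at early microspore, 0.51 and 0.80 at mid-microspore, and 0.12 and 0.43 at mid/late microspore. In lower florets it stood at -0.38 and -0.33, -0.30 and -0.14, -0.07 and -0.50, 0.06 and -0.17, 0.35 and 0.81, and 0.32 and 0.11. The mid-microspore pools were the highest of their floret, and the pools of the last stage lay above those of the first. The log2 ratio of the last to the first stage was 0.66 ± 0.20 in upper florets (limma adjusted p = 0.0236) and 0.57 ± 0.20 in lower florets (adjusted p = 0.0435). In the high scans alone it was 0.19 in upper florets (limma adjusted p = 0.357) and 0.10 in lower florets (adjusted p = 0.682), while in the low scans it was 0.89 and 0.83, so that size and call depend on the scan. The lower floret call was also lost in 13 of 24 fits without 1 pool.

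RPS27A, also named UBF9, whose product is made as a fusion with ubiquitin that is cut off before the protein enters the small subunit, had 2 features that did not follow each other (r = -0.42 over 24 pools). Neither passed the test of any stage. Feature 2384 stood at the most frequent value of its scan, which carries no ratio of its own, in 44 of 48 low scans, and feature 3461 in 1 of 48.

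In the large subunit the feature that passed was 8591 of ec2e, also listed as rpl39, a very small protein that lines the exit tunnel for the growing chain. In upper florets this feature stood at 1.32 and 1.12 in meiocyte pools, 0.77 and 0.82 at dyad/tetrad, 0.93 and 0.74 at tetrad, 0.46 and 0.75 at early microspore, -1.57 and -1.67 at mid-microspore, and -0.77 and -1.64 at mid/late microspore. In lower florets it stood at 1.46 and 1.13, -0.38 and -0.27, 0.40 and 1.01, -0.03 and 0.60, -1.28 and -1.19, and -1.30 and -1.39. The 4 pools of the last 2 stages lay below all others in each floret. The last stage was 5.37-fold lower than the first in upper florets (log2 ratio -2.43 ± 0.28, limma adjusted p = 3.70e-05) and 6.25-fold lower in lower florets (-2.64 ± 0.28, adjusted p = 1.82e-05). It also had the smallest p of the members for any change over the 6 stages in both florets (limma F test, adjusted p = 1.14e-05 in upper and 3.27e-05 in lower florets).

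The size of this drop depended on the scan, although its call did not. In the low scans alone the log2 ratio was -3.75 in upper and -4.89 in lower florets, in the medium scans -2.18 and -1.78, and in the high scans -1.35 and -1.26. The feature stood at the most frequent value of its scan in 20 of 48 low scans. With the median in place of the mean of the 3 scans the log2 ratio was -1.59 in upper and -1.58 in lower florets.

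The other feature of ec2e, 2086, spotted from another clone, did not pass this test. Its log2 ratio of the last to the first stage was 0.80 ± 0.48 in upper florets (limma adjusted p = 0.237) and 0.10 ± 0.48 in lower florets (adjusted p = 0.896). It stood in upper florets at -1.19 and -0.56, -0.90 and -0.57, -1.06 and -0.85, -1.08 and -1.004, -0.88 and -0.63, and -0.65 and 0.52 from the meiocyte to the mid/late microspore stage, and in lower florets at 0.73 and 0.76, 0.85 and 1.26, 0.49 and -0.18, 1.62 and 0.37, 1.32 and -0.07, and 0.74 and 0.96. Upper floret pools lay below 0 except the second of the last stage, and lower floret pools above 0 except the second of the tetrad and of the mid-microspore stage. Over the 24 pools the features of ec2e had r = -0.30, whereas those of rpl19 had r = 0.89. Which of them reports the ec2e transcript cannot be told apart with these data.

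**Figure D2:**
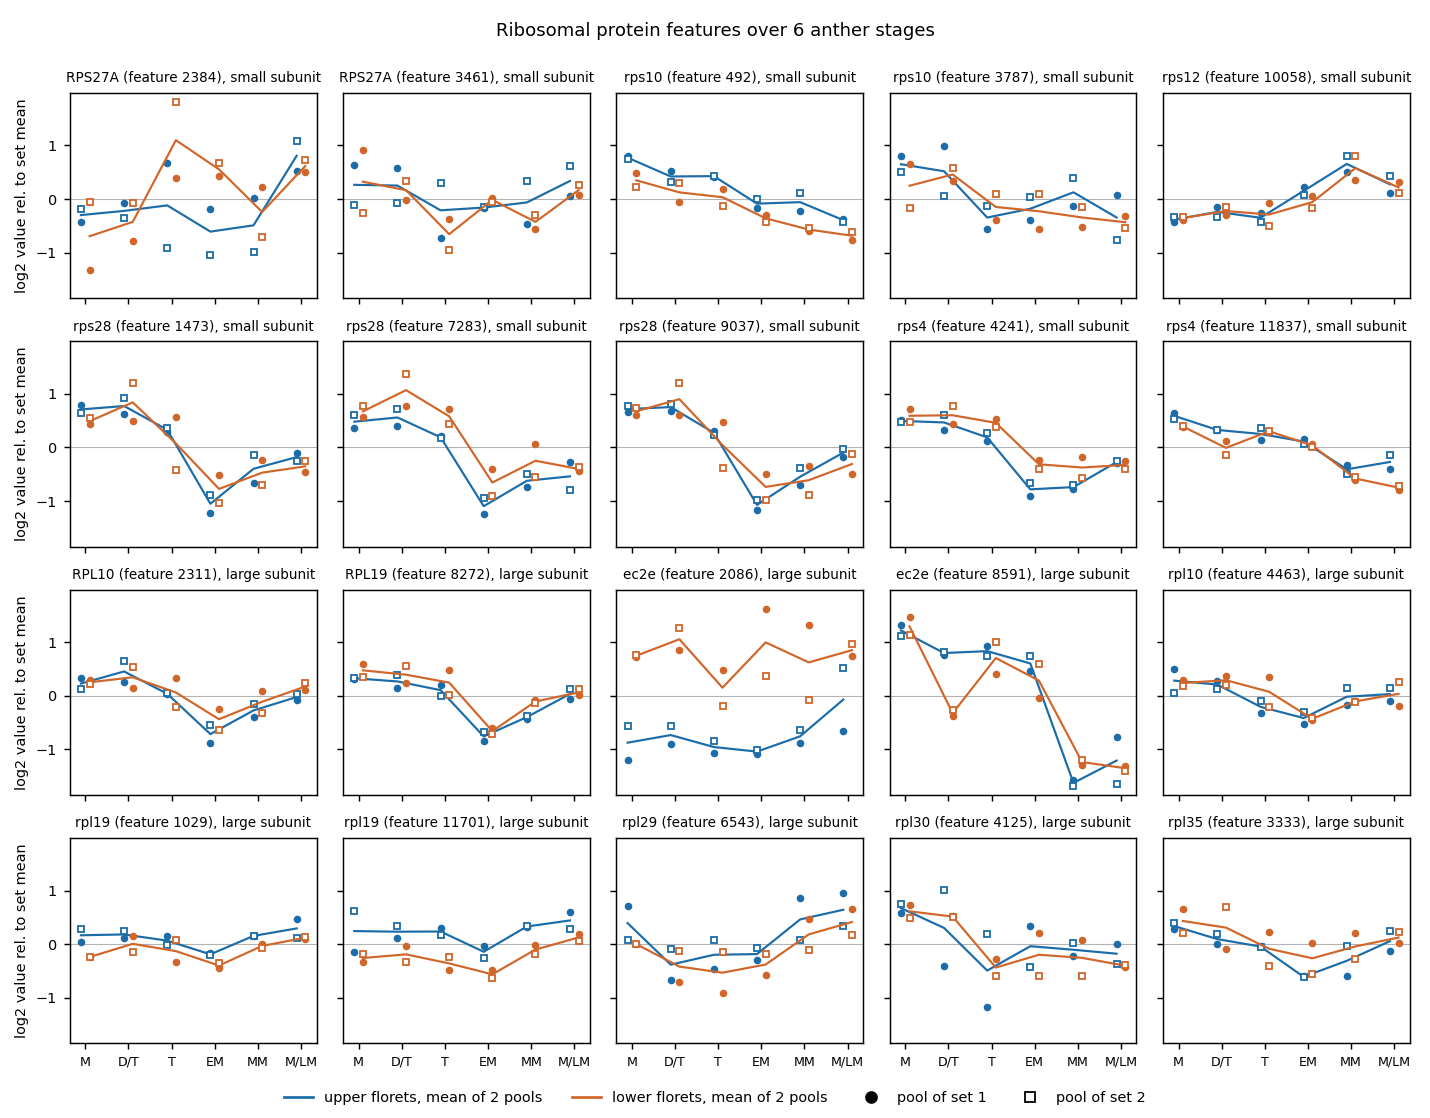
Fitted log2 value of each of the 20 features, relative to the mean of its set, in every pool by stage (M meiocyte, D/T dyad/tetrad, T tetrad, EM early microspore, MM mid-microspore, M/LM mid/late microspore), for upper florets (blue) and lower florets (orange). Circles are pools of set 1, squares pools of set 2, and lines join the means of 2 pools; ec2e 8591 spans 2.84 between its highest and lowest stage mean in upper florets, and the 3 rps28 features reach their lowest mean at early microspore in both florets.

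No other large subunit feature passed between the last and the first stage. RPL10 (feature 2311) and RPL19 (feature 8272) had log2 ratios of -0.25 ± 0.23 and -0.29 ± 0.17 in upper florets, and -0.08 ± 0.23 and -0.41 ± 0.17 in lower florets. In yeast the proteins of these names join the subunit late in its assembly (RPL10) and bridge it to the small subunit (RPL19). The separate gene rpl10 (feature 4463) gave -0.25 ± 0.22 in upper and -0.20 ± 0.22 in lower florets. The single features of rpl29, rpl30 and rpl35 gave 0.25 ± 0.38, -0.85 ± 0.47 and -0.28 ± 0.31 in upper florets, and 0.41 ± 0.38, -1.01 ± 0.47 and -0.31 ± 0.31 in lower florets. Of the separate gene rpl19, feature 1029 gave 0.13 ± 0.17 in upper and 0.36 ± 0.17 in lower florets, and feature 11701 gave 0.20 ± 0.22 in upper and 0.38 ± 0.22 in lower florets. For rpl30 the interval of plus or minus 1 SE reaches past a log2 ratio of -1, so that a fall of the size measured for rps10 lies within its error.

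Over all 6 stages, 10 of 20 features (50%) in upper florets and 9 of 20 (45%) in lower florets passed the limma F test for any difference between stages, against 37.5% of all features in each floret. In the small subunit 7 of 10 features passed in each floret, and in the large subunit 3 of 10 in upper and 2 of 10 in lower florets. RPL10 passed in upper florets (adjusted p = 0.0115) and not in lower florets (adjusted p = 0.0910), and the interaction of floret and stage did not pass for it (adjusted p rounding to 1.00).

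Between neighbouring stages, 6 of 20 features passed in at least 1 of the 5 steps in upper florets (9.47% of all features) and 5 of 20 in lower florets (11.4%). In upper florets most of these calls lay at the step from tetrad to early microspore. In lower florets 3 lay there, 2 at the next step and 1 at the step from meiocyte to dyad/tetrad. At early microspore against tetrad, 5 of 20 features (25%) fell in upper florets, where 1.88% of all features fell, and 3 of 20 (15%) fell in lower florets, where 2.01% did. None rose, where 1.94% of the array rose in upper and 2.04% in lower florets. These were the 3 features of rps28, rps4 feature 4241 and RPL19 in upper florets, and rps28 feature 7283, the same rps4 feature and RPL19 in lower florets. Of the features that did not pass, 10 of 15 in upper and 12 of 17 in lower florets had a log2 ratio below 0, where 49.3% and 50.7% of the array did. The median over the 20 features was -0.32 in upper and -0.33 in lower florets, against 0.0062 and -0.0090 over all features.

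RPL19 stood in upper florets at 0.32 and 0.34 in meiocyte pools, 0.15 and 0.38 at dyad/tetrad, 0.21 and 0.0010 at tetrad, -0.84 and -0.68 at early microspore, -0.42 and -0.37 at mid-microspore, and -0.05 and 0.12 at mid/late microspore. Lower floret pools of RPL19 stood at 0.59 and 0.36, 0.24 and 0.55, 0.47 and 0.02, -0.61 and -0.71, -0.07 and -0.14, and 0.0063 and 0.12. The early microspore pools were the lowest of each floret without overlap, and the last pools had come back to within the range of the tetrad pools or just below it. At early microspore against tetrad RPL19 had a log2 ratio of -0.86 ± 0.17 in upper florets (limma adjusted p = 0.0180) and -0.90 ± 0.17 in lower florets (adjusted p = 0.0129). In the same order rps28 feature 7283 had -1.28 ± 0.27 (limma adjusted p = 0.0225) and -1.23 ± 0.27 (adjusted p = 0.0250), and rps4 feature 4241 had -0.97 ± 0.17 (adjusted p = 0.00985) and -0.77 ± 0.17 (adjusted p = 0.0309). The rps28 features 1473 and 9037 had -1.38 ± 0.32 and -1.34 ± 0.28 in upper florets, and -0.85 ± 0.32 and -0.78 ± 0.28 in lower florets.

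With any 1 of the 4 tetrad and early microspore pools of upper florets left out, 0 or 1 of the 5 calls of upper florets were made, and with 1 of those of lower florets left out, 0 or 1 of the 3 calls of lower florets. Under these omissions the log2 ratios of upper florets lay between -0.83 and -1.08 for rps4 feature 4241 and between -0.72 and -0.96 for RPL19. For rps28 feature 7283 they lay between -1.01 and -1.44. The log2 ratios of lower florets lay between -0.69 and -0.90, between -0.57 and -1.15, and between -0.98 and -1.51 in the same order.

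The early microspore stage held the lowest mean of 12 of 20 members in upper florets and of 9 of 20 in lower florets, and the highest mean of none. Over all features it held the lowest mean for 20.8% and 20.9%, and the highest mean for 17.9% and 18.5%. By subunit, 7 of 10 large and 5 of 10 small subunit features were lowest there in upper florets, and 6 of 10 large and 3 of 10 small in lower florets, the 3 being the features of rps28. The profiles of the 3 rps28 features, rps4 feature 4241, RPL10 and RPL19, a group chosen after their values were seen, correlated with r between 0.82 and 0.99 over the 12 group means. The other rps4 feature, 11837, was most like ec2e feature 8591 (r = 0.94).

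**Figure D3:**
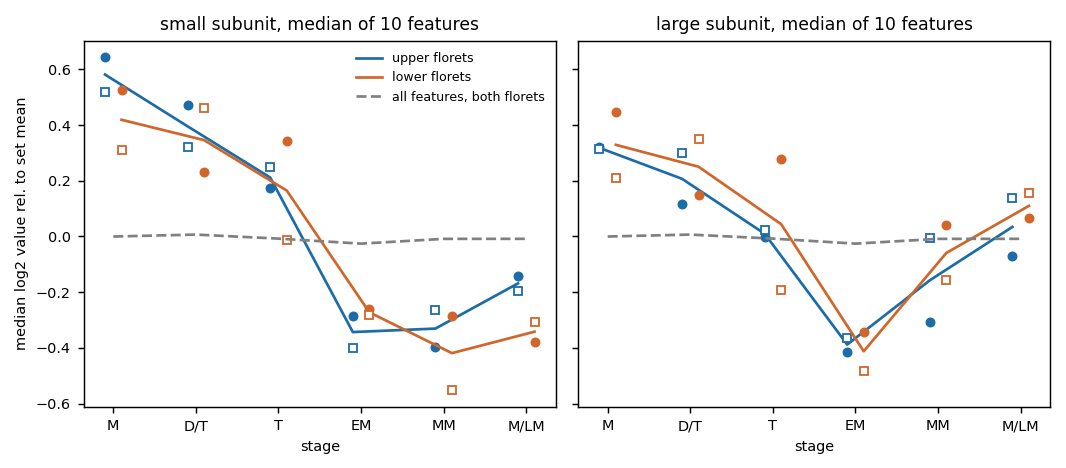
Median log2 value of the 10 small subunit features (left) and the 10 large subunit features (right) in every pool by stage, for upper florets (blue) and lower florets (orange), with circles for set 1, filled, squares for set 2, open, lines for the mean of both sets, and a dashed grey line for the median of all features. The early microspore medians of upper florets lie at -0.28 and -0.40 for the small and at -0.41 and -0.36 for the large subunit, and at mid/late microspore the small subunit medians lie below 0 and the large subunit medians near it.

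The medians per pool show the course by subunit. In upper florets the small subunit median stood at 0.64 and 0.52 in meiocyte pools, 0.47 and 0.32 at dyad/tetrad, 0.17 and 0.25 at tetrad, -0.28 and -0.40 at early microspore, -0.40 and -0.26 at mid-microspore, and -0.14 and -0.20 at mid/late microspore. Its lower floret values were 0.53 and 0.31, 0.23 and 0.46, 0.34 and -0.01, -0.26 and -0.28, -0.29 and -0.55, and -0.38 and -0.31, so that the small subunit medians of the last 3 stages lay below those of the first 3, with no lowest stage common to both florets. The large subunit median of upper florets stood at 0.32 and 0.32 in meiocyte pools, 0.12 and 0.30 at dyad/tetrad, -0.0027 and 0.02 at tetrad, -0.41 and -0.36 at early microspore, -0.31 and -0.0070 at mid-microspore, and -0.07 and 0.14 at mid/late microspore. In lower florets it was 0.45 and 0.21, 0.15 and 0.35, 0.28 and -0.19, -0.34 and -0.48, 0.04 and -0.16, and 0.07 and 0.15, and the early microspore pools were the lowest of each floret. These medians are a description and carry no test.

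At mid-microspore against early microspore no member rose, where 2.11% of the array rose in upper and 3.13% in lower florets. By unadjusted p under 0.05 there were 4 members in upper and 5 in lower florets, in either direction. The log2 ratio was above 0 for 17 of 20 features in upper florets and for 11 of 20 in lower florets, with medians of 0.32 and 0.17. Those that fell were ec2e feature 8591, in upper (-2.23 ± 0.28, limma adjusted p = 8.36e-04) and in lower florets (-1.52 ± 0.28, adjusted p = 0.00963), and rps4 feature 11837 in lower florets (-0.62 ± 0.14, adjusted p = 0.0278). They are 1 of 20 features, against 3.28% of all features that fell in upper florets, and 2 of 20, against 4.49% in lower florets.

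Of the other 3 steps, only the first held a call, and in lower florets only. There ec2e feature 8591 was lower at dyad/tetrad than in meiocytes (-1.62 ± 0.28, limma adjusted p = 0.00652), 1 of 20 features where 0.173% of the array fell and 0.222% passed in either direction. In upper florets its log2 ratio at that step was -0.42 ± 0.28 (limma adjusted p = 0.612), and 0 of 20 members passed there, with none at an unadjusted p under 0.05, where 0.452% of the array passed. The test over all 6 stages of an interaction of floret and stage gave this feature an unadjusted p of 0.0329 and a limma adjusted p that rounds to 1.00, so that the florets were not shown to differ. By limma, 0 of 20 members passed at tetrad against dyad/tetrad, where 0.14% of the array passed in upper and 0.806% in lower florets, and 1 member in upper and 5 in lower florets had an unadjusted p under 0.05. Likewise 0 of 20 passed at mid/late against mid-microspore, where 1.18% of the array passed in upper and 0.732% in lower florets, with 3 members in upper and 0 in lower florets at an unadjusted p under 0.05.

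Averaged over the 6 stages, 7 of 20 features (35%) differed between upper and lower florets by the limma test, against 26.7% of all features. Higher in upper florets were 4 (13.8% of all features) and lower were 3 (12.9%). All but 1 of these differences were under 0.5 on the log2 scale, and the exception was ec2e feature 2086.

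Feature 2086 stood between -1.19 and 0.52 with a median of -0.86 in the 12 upper floret pools, and between -0.18 and 1.62 with a median of 0.75 in the 12 lower floret pools. The upper floret pool lay below the lower floret pool in 12 of 12 pairs of the same stage and set, although the ranges overlap through the second upper pool of the last stage, at 0.52, and the second lower pool of the tetrad stage, at -0.18. The log2 ratio of upper to lower florets was -1.47 ± 0.20 (12 pools per floret, limma adjusted p = 3.10e-04), a 2.78-fold lower value. It was -1.92 in set 1 and -1.03 in set 2. In the high scans alone it was -0.68, against -1.98 in the low scans, and passed in each.

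The other floret differences were small. Feature 492 of rps10 stood higher in upper florets in 12 of 12 pairs, with a median of 0.21 in upper and -0.21 in lower florets and a log2 ratio of 0.36 ± 0.07 (limma adjusted p = 0.00244). For rpl19, feature 11701 stood in upper florets at -0.14 and 0.63, 0.12 and 0.34, 0.29 and 0.18, -0.02 and -0.26, 0.32 and 0.34, and 0.60 and 0.28 over the 6 stages in order, and in lower florets at -0.33 and -0.18, -0.04 and -0.34, -0.47 and -0.24, -0.49 and -0.64, -0.02 and -0.18, and 0.19 and 0.06. It too was higher in 12 of 12 pairs, at 0.45 ± 0.09 (limma adjusted p = 0.00294), and at 0.62 in the low but 0.18 in the high scans, passing in each. The feature of rpl29 was also higher in upper florets in 12 of 12 pairs, yet did not pass. Pairs of a set share slides within the fit and are not independent. Feature 1029 of rpl19 stood in upper florets at 0.04 and 0.29, 0.11 and 0.25, 0.15 and -0.02, -0.17 and -0.21, 0.16 and 0.15, and 0.48 and 0.11, and in lower florets at -0.23 and -0.25, 0.15 and -0.14, -0.34 and 0.08, -0.45 and -0.34, 0.00014 and -0.06, and 0.10 and 0.14. It was higher in upper florets in 9 of 12 pairs, at 0.22 ± 0.07 (limma adjusted p = 0.0288), a call lost in 16 of 24 fits without 1 pool and in 4 of 9 other alternatives. The genes named rps4 differed in opposite directions, feature 11837 being higher in upper florets at 0.20 ± 0.06 (limma adjusted p = 0.0171) and feature 4241 lower at -0.21 ± 0.07 (adjusted p = 0.0396). In the high scans alone neither passed, at 0.086 (limma adjusted p = 0.201) and -0.18 (adjusted p = 0.0863), and feature 4241 also lost its call in the low scans (adjusted p = 0.0883), with scaled columns (0.0501) and with 1 kind of slide (0.0545). Leaving out 1 pool lost the call of feature 11837 in some fits and that of feature 4241 in most. Feature 7283 of rps28 was lower at -0.34 ± 0.11 (limma adjusted p = 0.0331, lost in 13 of 24 fits without 1 pool), while the other 2 features of rps28 stood at 0.06 ± 0.13 and 0.01 ± 0.12.

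**Figure D4:**
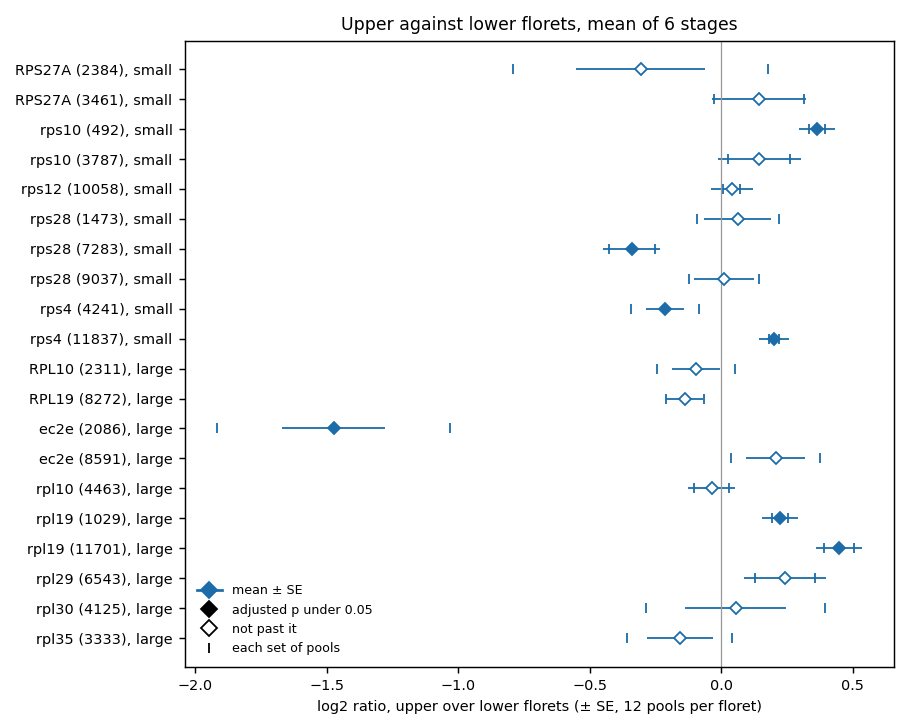
Log2 ratio of upper over lower florets for each of the 20 features, averaged over 6 stages. Diamonds are fitted values with their SE (12 pools per floret), filled where the adjusted p is under 0.05, and ticks are the values of the 2 sets; ec2e feature 2086 lies at -1.47 and the other filled features lie between -0.34 and 0.45.

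These floret calls rest on reading the floret slides as deposited. With them turned by the dyes in the labels, 0 of 20 members passed and ec2e feature 2086 stood at 0.19 (limma adjusted p = 0.621). The difference of a stage step between the florets can be read from stage slides or from floret slides, and in 10 such comparisons r across features lay between 0.27 and 0.48 as deposited and between -0.05 and 0.05 turned.

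At single stages 0 of 20 members differed between the florets by limma, where 0.14% of all features passed in at least 1 stage. Between 1 and 4 members per stage had an unadjusted p under 0.05. The test of an interaction of floret and stage passed 0 of 20 members and 0 of 12160 features, with 1 member and 270 features at an unadjusted p under 0.05.

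Agreement between the 2 sets of pools varied among the members. Over the 12 groups of stage and floret, the correlation of set 1 with set 2 lay between -0.07 and 0.94 with a median of 0.73, against a median of 0.58 over the array. It was highest for rps4 feature 11837 (0.94), ec2e feature 8591 (0.93), rps4 feature 4241 (0.91) and rps10 feature 492 (0.89). It was lowest for RPS27A feature 3461 (-0.07) and rpl30 (0.13), which had no call. With features averaged by gene, a choice made after seeing the data, 5 of 14 genes fell and 1 rose between the last and the first stage in each floret, against 28.8% of 4903 genes called in upper and 30.9% in lower florets. Those that fell were rps10, rps28, both rps4 genes and ec2e, and rps12 rose. The value of ec2e is the average of 2 features that did not follow each other (r = -0.30).

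Other genes of protein synthesis were given by few features. Between the last and the first stage 0 of 4 features of EF1A, the elongation factor that brings aminoacyl-tRNA to the ribosome, passed in either floret by limma, where 26.7% of the array did in upper and 27.8% in lower florets, and 0 and 1 of them had an unadjusted p under 0.05 in upper and lower florets. By the limma F test for any stage, 2 of 4 EF1A features passed in upper and 3 of 4 in lower florets. Of the array 37.5% passed in each floret. At early microspore against tetrad none passed by limma, with 2 in upper and 3 in lower florets at an unadjusted p under 0.05. The EF1A median was -0.06 in upper and -0.47 in lower florets, with 2 and 1 features above 0. Feature 6050 came closest, at -0.58 in lower florets (limma adjusted p = 0.0509). Between the last and the first stage 1 of 3 initiation factor features, eif7, fell. It stood at -0.94 ± 0.17 in upper florets (limma adjusted p = 0.00136) and -0.89 ± 0.17 in lower florets (adjusted p = 0.00195). EIF5 and eif3 did not pass. A list of 7 features of ribosomal proteins named in another form, compiled with the array's names known, held rps6-2, arpp40, csu525(rpL17) and arpp2a-3. In each floret 2 of these 7 fell (28.6%, against 13.5% of the array) and none rose, so that the share called in either direction was close to the 26.7% and 27.8% of the array. The list had medians of -0.60 in upper and -0.77 in lower florets. In upper florets they were the features 540 and 8122 of rps6-2, a small subunit protein that is phosphorylated under growth signals, at -0.94 ± 0.31 (limma adjusted p = 0.0397) and -0.83 ± 0.23 (adjusted p = 0.0185). In lower florets they were feature 8122 of rps6-2 at -0.88 ± 0.23 (limma adjusted p = 0.0129) and feature 7621 of csu525(rpL17) at -0.89 ± 0.20 (adjusted p = 0.00547). At early microspore against tetrad both rps6-2 features fell in upper florets, at -1.43 (limma adjusted p = 0.030) and -1.14 (adjusted p = 0.0216).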

How the data were processed

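RNA pools of maize anthers were compared in 2 colours on 48 slides, with a low, a medium and a high scan of each. The deposited values are log ratios, 1 per feature and scan, near 0 at their median. They were read as natural log ratios normalised by the authors before they were deposited. The sources give no base, so it was inferred: distances between repeated values matched the natural log in 63 cases, log2 in 0 and log10 in 5 (47 low scans, within 5e-06). No source used here names the software of the normalisation. Signal over background was not analysed, and the spread between pools measures the precision.

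The deposited values were turned into log2 ratios, centred on the median of each scan and averaged over the 3 scans of a slide, from which R 4.3.3 with MASS 7.3.60.0.1 gave 1 value per pool by least squares within the set. limma 3.58.1 was fitted to all 12160 features with 12 groups and a term for set (11 residual degrees of freedom). Adjusted p-values are Benjamini-Hochberg over all features, with the 5 steps of a floret, and the 6 stages of the floret comparison, adjusted together, and called means under 0.05. The sets pair the pools because both pools of each slide come from 1 set, so that the term for set is in the model. Pool values are already relative to the mean of their set. The term therefore left the log2 ratios as they were and only took up a degree of freedom. On data simulated for the last against the first stage of upper florets over 12160 features, 50% of changes of 1 log2 unit and 76% of 2 units were recovered, and 1.56% of calls were false. Only 100 features of each size were changed there, whereas 26.7% of features passed in the real comparison. These rates therefore need not hold for the real data.

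Members and lists were chosen with earlier results of these data known. Every member gene is named. Values of every pool are given, by rule, for the 3 largest called changes between the last and the first stage per direction and floret, the smallest F test p, all features of rps10, rps28 and ec2e, and all features called in the floret average. RPL19 was added after its values were seen. Of other lists up to 3 called genes per floret are named. A planned list of ribosome assembly genes matched no feature. The kernel list held 5 features and the tapetum list 1. Alternatives were each scan alone, the median of scans, scaling, centring, the sign of the floret slides, 1 kind of slide, no term for set, leaving out each pool, and, added after seeing the data, features averaged by gene. Figures used matplotlib 3.10.9 in Python 3.11.15.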

Additional observations from a re-analysis of the deposited data

How the results depend on the processing

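Single features were not followed under the alternatives at steps other than early microspore against tetrad. At that step and between the last and the first stage, no call changed sign under the alternatives. With the floret slides turned by the dyes, 4 of 7 called floret differences did, standing at 0.193 for ec2e feature 2086, -0.0958 for rpl19 feature 11701, -0.0569 for rps4 feature 11837 and 0.0169 for rps4 feature 4241, none of which passed. Of results that had not passed, 5 changed sign under 1 alternative each, fits without 1 pool aside. In some fits without 1 pool, RPS27A feature 3461, both rpl19 features and rpl29 changed sign in upper florets between the last and the first stage. In lower florets RPS27A feature 3461, RPL10, ec2e feature 2086 and rpl10 did so. With columns scaled to one spread, 3 in upper and 4 in lower florets passed between the last and the first stage. Over the array 1376 and 1507 features then passed, where 3246 and 3379 did without scaling. With this scaling 2 members passed in a step of lower florets, and the small subunit medians were -0.60 and -0.61. In the low scans 2 passed in a step of lower florets and 4 in the floret average, and these medians were -0.92 and -0.99. Between the last and the first stage 7 passed in each floret, and 5 and 6 in upper and lower florets did in the high scans, 8 and 8 with the median of scans, 9 and 8 with the floret slides turned, and 6 and 7 with 1 kind of slide. Of all features 2763 and 2865 passed in the high scans, and 3451 and 3574 with the median of scans. With the floret slides turned 4382 and 4321 of all features did, and with 1 kind of slide 2766 and 3041. The high scans gave 4 members in the floret average, 1 at a single stage (ec2e feature 2086), and small subunit medians of -0.74 and -0.67. With the floret slides turned by the dyes 9 passed in a step of lower florets, 0 in the floret average, and the upper median was -0.80. With 1 kind of slide, 3 passed in a step of lower florets and the upper median was -0.78. In the medium scans, the median of scans and uncentred columns, the upper median was -0.86, -0.85 and -0.83. Features averaged by gene gave 4 of 14 genes in the floret average, where 26.7% of 4903 genes passed. Without the replicate block, the term for set, 8 members passed in each floret between the last and the first stage. Of all features 3645 and 3760 did.

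Leaving out 1 pool gave 4 to 8 calls in upper and 4 to 9 in lower florets between the last and the first stage, with 4 reached without the mid/late microspore pool 2 of upper florets and without either meiocyte pool of lower florets. It gave 9 to 12 and 8 to 11 for any stage, 1 to 6 and 1 to 5 for a step, 3 to 7 for the floret average, and 0 for single stages and the interaction. The lowest step counts came without a tetrad or early microspore pool. Each of these fits leaves 1 group with a single pool. Without a pool of the first or last stage, fewer features of the whole array passed between these stages in that floret too. The smaller counts are therefore not shown to be particular to the members. Shares of the array for any stage and for a step are not given here. The small subunit median lay between -0.86 and -0.79 in upper and between -0.93 and -0.75 in lower florets, and the large subunit median between -0.36 and -0.0767 and between -0.27 and 0.0047. Of 55 results for single features under 9 alternatives each, 445 kept their side of the threshold and any called direction, 36 lost and 10 gained a call, and 4 turned as given above. At early microspore against tetrad, rps28 feature 1473 in upper florets lost its call in 4 of 9, and rps4 feature 4241 in lower florets in 3. The causes were not tested.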

Other observations

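The 4 features left out because each lists 3 genes, among them a ribosomal protein name of the same form, also mostly fell between the last and the first stage. Their log2 ratios of the last to the first stage were -0.96, -1.16, -0.99 and -0.90 in upper florets (limma adjusted p = 0.0706, 0.0210, 0.0461 and 0.00466), and -1.27, -0.82, -1.09 and -1.01 in lower florets (adjusted p = 0.0214, 0.0871, 0.0293 and 0.00206). Over the array 13.5% of features fell between these stages in each floret. All 4 left-out features passed the limma F test for any stage in both florets, where 37.5% of all features did in each. At early microspore against tetrad all 4 stood below 0 in both florets, between -1.39 and -0.60 in upper and between -0.81 and -0.39 in lower florets, and none passed (smallest limma adjusted p = 0.0526 in upper and 0.196 in lower florets). Which of the listed genes these spots report is not known.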
